A study of Homo sapiens with 9 samples.

Results

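The genes described here are 10 genes from which the epithelial or mesenchymal state of a cell is commonly read. They are the surface proteins CDH1, CDH2 and EPCAM, the intermediate filament gene VIM, the matrix gene FN1, and the transcription factors ZEB1, ZEB2, SNAI1, SNAI2 and TWIST1. They were taken by gene symbol, in view of earlier results of these data, and they are 10 of the 58395 Ensembl identifiers counted, of which 58275 were in GENCODE 29. The cells were MDA-MB-231, an established triple-negative breast cancer line grown in DMEM with serum. All were reverse transfected with an siRNA and taken 96 h later, and each of the 3 groups had 3 libraries. The group siNC received a nontargeting control siRNA. The groups siZIP7_1 and siZIP7_2 each received an individual siRNA against ZIP7, the product of SLC39A7, which releases zinc from the endoplasmic reticulum. With a single siRNA in each group, loss of ZIP7 and any other effect of that siRNA cannot be told apart within the group. The labels do not say whether the 3 libraries of a group came from separate cultures, so p-values measure the spread between these libraries, which may be technical.

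Epithelial cells hold to their neighbours through E-cadherin, the product of CDH1, which catenins tie to the actin skeleton. In the epithelial to mesenchymal transition, factors of the ZEB, SNAI and TWIST families repress CDH1 and other junction genes, and cells gain N-cadherin (the product of CDH2), vimentin (VIM) and fibronectin (FN1). Signalling by TGF-beta through SMAD proteins is a known inducer of these factors, and MDA-MB-231 is widely used as a line of mesenchymal kind.

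Each library held between 24153785 and 30454419 reads counted on genes. Levels are given as CPM, the reads on a gene scaled to a common library size by TMM. The groups were compared by the quasi-likelihood test of edgeR, with p-values adjusted after Benjamini-Hochberg over the 16761 genes that passed its low-count filter, with a threshold of 0.05, and every adjusted p below is from this test. A fold change is the fitted one, and its error is the standard error (SE) of the log2 fold change, with its 95% confidence interval where that is given. Both knockdown groups were compared with the same siNC libraries, so their changes are not independent. The targeted gene, SLC39A7, was at 321, 343 and 322 CPM with siNC, at 35.4, 32.9 and 38.6 CPM with siZIP7_1 and at 20.5, 19.5 and 17.6 CPM with siZIP7_2. Its remaining level was 10.8% of that of siNC with siZIP7_1 and 5.84% with siZIP7_2. ESR1, the estrogen receptor gene, had at most 15 reads in any library and PGR, the progesterone receptor gene, at most 2, while the basal keratin gene KRT5 had 0 in all 9 libraries. Other luminal and basal genes were not so low. In siNC, siZIP7_1 and siZIP7_2, ERBB2 had means of 74.2, 88.0 and 59.3 CPM. GATA3 had 15.8, 8.49 and 12.9 CPM, and FOXA1 2.98, 2.63 and 4.43 CPM. The keratin genes KRT15 and KRT17 were at 3.99 and 1.39 CPM with siNC and at 47.9 and 9.73 CPM with siZIP7_2.

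With siZIP7_1 the epithelial genes CDH1 and EPCAM rose 8.84-fold and 1.47-fold, the mesenchymal cadherin gene CDH2 rose 3.85-fold, and VIM, ZEB1, ZEB2, SNAI1 and SNAI2 fell. With siZIP7_2, CDH1 rose 2.10-fold and SNAI1 5.73-fold, and EPCAM, VIM, FN1 and SNAI2 fell. In counts, 8 of the 9 members tested passed the threshold with siZIP7_1, where 70.7% of all genes tested did. The 3 higher members stand beside 34.8% of all genes and the 5 lower ones beside 35.9%. With siZIP7_2, 6 of 9 passed, where 77.8% of all genes did, with 2 members higher (38.5% of all genes) and 4 lower (39.3%). Between the siRNAs, 9 of 9 members differed, where 78.7% of all genes did, with 4 members higher with siZIP7_2 (38.1% of all genes) and 5 lower (40.6%). So large a share of all genes passed that these counts alone set the members little apart, and their sizes and directions are described gene by gene below.

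**Figure D1:**
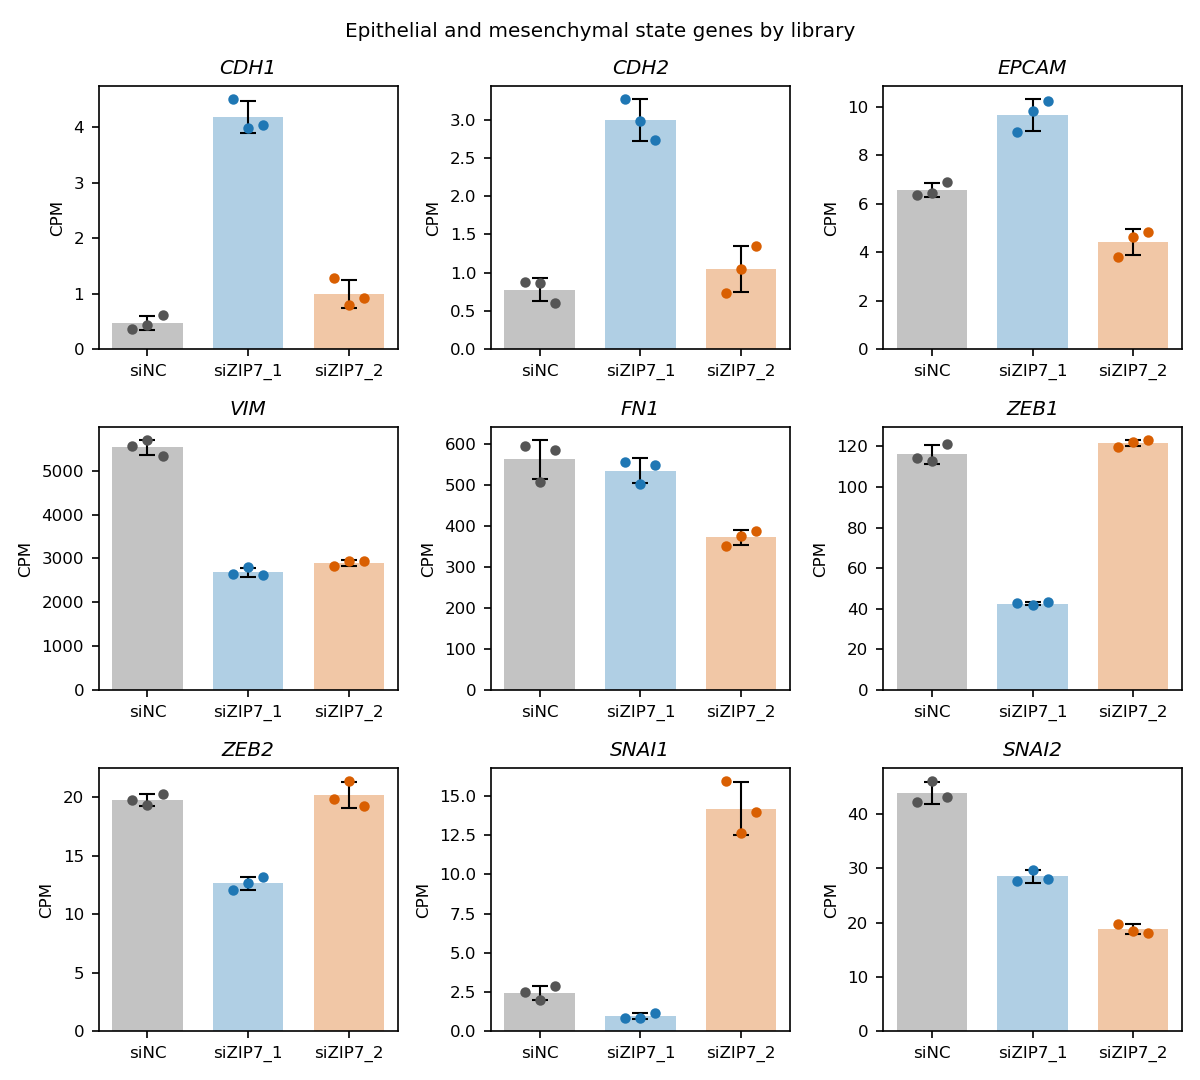
Level of 9 of the 10 genes in each library, as CPM on the vertical axis, for siNC, siZIP7_1 and siZIP7_2. Bars are means, error bars are SD over 3 libraries, points are the libraries, and each panel has its own scale from 0. ZEB1 and ZEB2 are lowest with siZIP7_1, SNAI1 stands between 12.6 and 16.0 CPM with siZIP7_2, and VIM is lower in all 6 knockdown libraries than in the siNC libraries.

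The levels of these genes in the control cells spanned several orders of magnitude when set per length, as RPKM, which is CPM per kb of merged exons. In siNC, VIM was at 1072 ± 34.97 (SD, n = 3), which was rank 19 among the 16738 tested genes with a length. FN1 followed at 32.4 ± 2.78 (SD, n = 3). ZEB1 at 13.4 ± 0.525 and SNAI2 at 12.9 ± 0.599 (both SD, n = 3) overlapped, with ZEB1 libraries from 13.0 to 14.0 and SNAI2 libraries from 12.5 to 13.6. EPCAM was at 2.61 ± 0.118, SNAI1 at 1.45 ± 0.260 and ZEB2 at 0.790 ± 0.0192 RPKM (SD, n = 3). CDH2, at 0.157 ± 0.0304, and CDH1, at 0.0754 ± 0.0202 RPKM (SD, n = 3), were lowest of the genes detected. When the length of the longest transcript was used, ZEB2 and SNAI1 traded places and the other members kept their ranks.

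**Figure D2:**
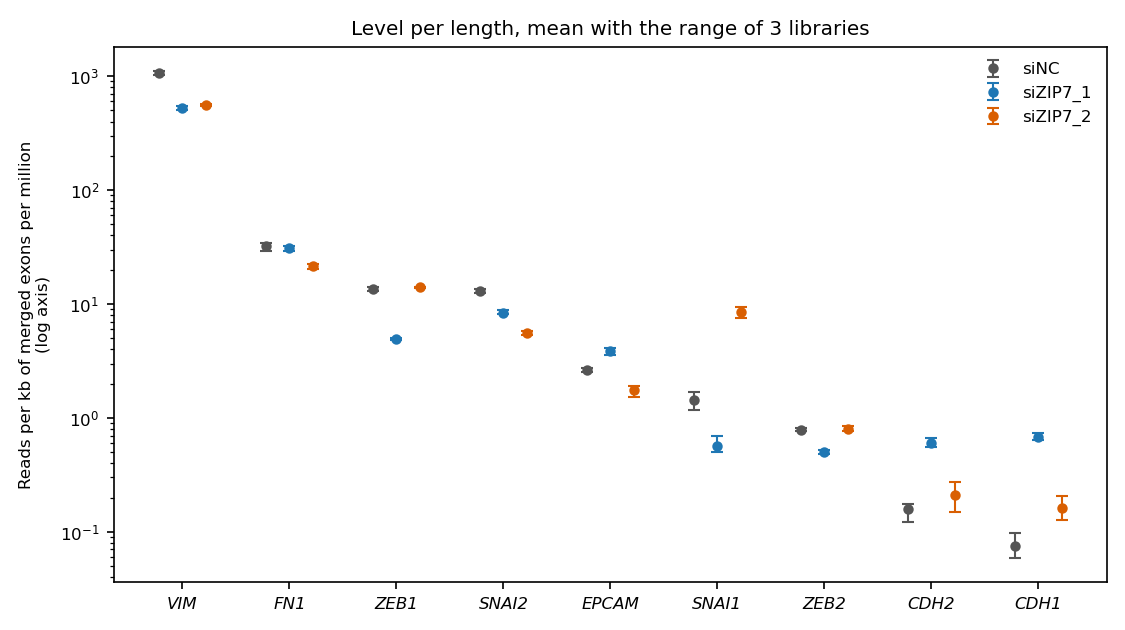
Level per length of the 9 detected genes on a log axis, as RPKM, for siNC, siZIP7_1 and siZIP7_2. Points are means and bars run from the lowest to the highest of 3 libraries; the siNC means fall from 1072 for VIM to 0.0754 for CDH1, and with siZIP7_1 CDH1 lies at 0.677.

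The order of levels moved with the knockdowns. With siZIP7_1, ZEB1 at 4.93 ± 0.0749 RPKM came to lie below SNAI2 at 8.40 ± 0.333 RPKM (SD, n = 3). With the same siRNA, CDH1 reached 0.677 ± 0.0470 RPKM (SD, n = 3), with libraries from 0.645 to 0.731. These lay above ZEB2, at 0.506 ± 0.0223 RPKM (SD, n = 3), and overlapped CDH2, which ran from 0.551 to 0.662, and SNAI1, which ran from 0.497 to 0.689. By the longest transcript this changed, since CDH1, at 0.815 to 0.924, then lay below ZEB2, at 1.26 to 1.38, and above CDH2, at 0.630 to 0.757, and SNAI1. With siZIP7_2, SNAI1 rose to 8.42 ± 1.00 RPKM (SD, n = 3) and passed both EPCAM, at 1.75 ± 0.216, and SNAI2, at 5.55 ± 0.256 per kb. VIM and FN1 stayed at the top of the order in every group. There were 0.102 ± 0.0112 reads of FN1 per read of VIM in siNC, 0.199 ± 0.0183 with siZIP7_1 and 0.128 ± 0.00382 with siZIP7_2 (SD, n = 3), and these ratios did not overlap between the groups.

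CDH1 (ENSG00000039068, GRCh38 chr16:68737225-68835548, plus strand) makes E-cadherin, the main adhesion protein of epithelial junctions. It had 10, 10 and 17 reads in the siNC libraries, which is 0.363, 0.430 and 0.605 CPM. The siZIP7_1 libraries had 124, 116 and 129 reads (4.52, 3.98 and 4.05 CPM), and the siZIP7_2 libraries had 33, 24 and 24 (1.28, 0.790 and 0.923 CPM). The 3 groups did not overlap, and all 6 knockdown libraries lay above all siNC libraries. On the log2 scale, siZIP7_1 gave 3.14 (SE 0.218, adjusted p = 1.57e-13, edgeR) and 1.07 with siZIP7_2 (SE 0.288, adjusted p = 0.00143, edgeR). The rise with siZIP7_2 was smaller, by a log2 difference of 2.08 (SE 0.185, adjusted p = 2.91e-11, edgeR). Because CDH1 was near 1 CPM or less in siNC and siZIP7_2, its interval with siZIP7_2 was wide, from 0.48 to 1.66, and the level reached with siZIP7_1 was still low beside that of ZEB1 or SNAI2 per length.

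EPCAM (ENSG00000119888, chr2:47345158-47387601, plus strand) makes a surface adhesion protein of epithelial cells. It was at 6.35, 6.44 and 6.91 CPM with siNC, at 8.96, 9.82 and 10.3 CPM with siZIP7_1 and at 3.80, 4.61 and 4.84 CPM with siZIP7_2. The 3 groups did not overlap, with the siZIP7_1 libraries above siNC and the siZIP7_2 libraries below it. Against siNC the log2 change under siZIP7_1 was 0.56 (SE 0.101, adjusted p = 1.51e-05, edgeR) and -0.57 with siZIP7_2 (SE 0.115, adjusted p = 5.56e-05, edgeR). In the direct test EPCAM fell by 1.13 (log2) from siZIP7_1 to siZIP7_2 (SE 0.107, adjusted p = 1.05e-10, edgeR). EPCAM and CDH1 thus kept no fixed proportion, with 14.6 ± 3.06 reads of EPCAM per read of CDH1 in siNC, 2.33 ± 0.300 with siZIP7_1 and 4.68 ± 1.51 with siZIP7_2 (SD, n = 3).

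CDH2 (ENSG00000170558, chr18:27950966-28177446, minus strand) makes N-cadherin, the cadherin that mesenchymal and neural cells use and that is usually read against E-cadherin. It had 24, 20 and 17 reads with siNC (0.871, 0.859 and 0.605 CPM) and 90, 87 and 87 with siZIP7_1 (3.28, 2.99 and 2.73 CPM). With siZIP7_2 it had 19, 32 and 35 reads (0.737, 1.05 and 1.35 CPM), which overlapped siNC. The siZIP7_1 libraries lay above all others, and the log2 fold change was 1.94 (SE 0.214, adjusted p = 3.14e-09, edgeR). With siZIP7_2 the value of 0.43 (SE 0.262, interval -0.10 to 0.97) did not pass (adjusted p = 0.132, edgeR). This call rests on the library with 19 reads, since without siZIP7_2 replicate 1 the value was 0.63 and passed (adjusted p = 0.0376, edgeR).

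E-cadherin and N-cadherin transcripts therefore moved in the same direction with siZIP7_1, not in exchange for each other. There were 0.639 ± 0.316 reads of CDH1 per read of CDH2 in siNC, 1.40 ± 0.0767 with siZIP7_1 and 1.06 ± 0.589 with siZIP7_2 (SD, n = 3). The siZIP7_1 ratios of 1.33 to 1.48 were above all siNC ratios, which ran from 0.417 to 1, while those of siZIP7_2 ran from 0.686 to 1.74 and overlapped both.

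VIM (ENSG00000026025, chr10:17228259-17237593, plus strand) makes vimentin, the intermediate filament of mesenchymal cells. It was at 5567, 5688 and 5333 CPM with siNC, at 2636, 2808 and 2618 CPM with siZIP7_1 and at 2816, 2937 and 2935 CPM with siZIP7_2. All 6 knockdown libraries lay below all siNC libraries, at 48.6% of the siNC mean with siZIP7_1 and 52.4% with siZIP7_2. The log2 change with siZIP7_1 was -1.04 (SE 0.05003, adjusted p = 3.19e-17, edgeR) and -0.93 with siZIP7_2 (SE 0.0499, adjusted p = 3.28e-16, edgeR). VIM was the member on which the siRNAs differed least, by a log2 value of 0.11 (SE 0.0496, adjusted p = 0.0486, edgeR), and that difference no longer passed under 9 of the 16 other settings tried, with adjusted p from 0.000395 to 0.309 over all 16. In the annotation 24.4% of the exonic length of VIM is overlapped by VIM-AS1 and AL133415.1 on the other strand. 

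FN1 (ENSG00000115414, chr2:215360440-215436172, minus strand) makes fibronectin, a matrix protein that mesenchymal cells secrete and bind. It was at 594, 506 and 585 CPM with siNC, at 556, 500 and 547 CPM with siZIP7_1 and at 351, 376 and 388 CPM with siZIP7_2. The siZIP7_1 libraries overlapped those of siNC, and the siZIP7_2 libraries lay below both. With siZIP7_2 the log2 fold change was -0.60 (SE 0.0567, adjusted p = 1.33e-10, edgeR), which leaves 66.2% of the siNC level. With siZIP7_1 it was -0.07 (SE 0.0563, interval -0.19 to 0.04, adjusted p = 0.255, edgeR). The siNC library with 506 CPM bears on that value, since without siNC replicate 2 it was -0.14 and passed (adjusted p = 0.0366, edgeR). The siRNAs differed by 0.52, FN1 being lower with siZIP7_2 (SE 0.0567, adjusted p = 1.71e-09, edgeR).

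**Figure D3:**
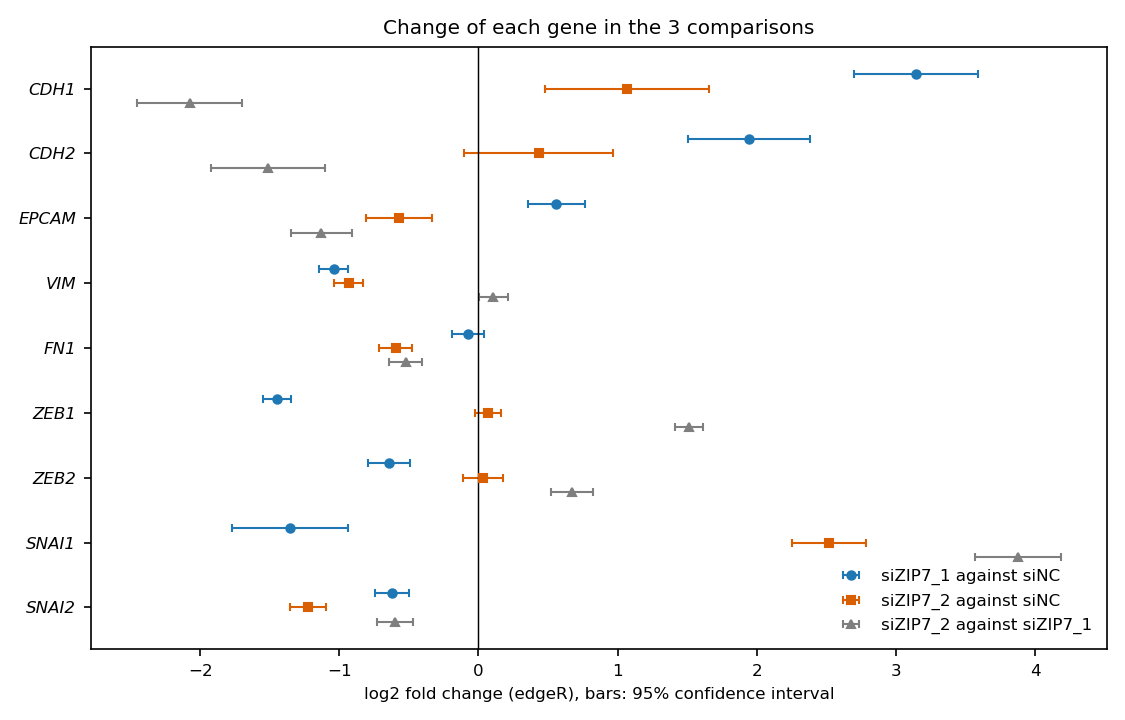
Log2 fold change (horizontal axis) of the 9 genes tested, for siZIP7_1 against siNC, siZIP7_2 against siNC and siZIP7_2 against siZIP7_1, with 95% confidence intervals from edgeR. CDH1 lies to the right of 0 and VIM and SNAI2 to the left of 0 with either siRNA, while SNAI1 lies at -1.36 with siZIP7_1 and at 2.52 with siZIP7_2.

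The ZEB factors are zinc finger and homeobox proteins that repress CDH1 by binding E-boxes, the letters CACCTG, which read CAGGTG on the other strand. ZEB1 (ENSG00000148516, chr10:31318495-31529814, plus strand) was at 114, 113 and 121 CPM with siNC, at 42.8, 41.9 and 43.2 CPM with siZIP7_1 and at 120, 122 and 123 CPM with siZIP7_2. ZEB2 (ENSG00000169554, chr2:144364364-144524583, minus strand) was at 19.8, 19.3 and 20.3 CPM with siNC, at 12.1, 12.7 and 13.2 CPM with siZIP7_1 and at 19.9, 21.5 and 19.3 CPM with siZIP7_2. For both genes the siZIP7_1 libraries lay below all others and the siZIP7_2 libraries overlapped siNC. The fall with siZIP7_1 was -1.45 for ZEB1 (SE 0.0490, adjusted p = 8.52e-21, edgeR) and -0.64 for ZEB2 (SE 0.0731, adjusted p = 6.25e-09, edgeR) on the log2 scale.

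With siZIP7_2 neither ZEB gene passed. ZEB1 changed by 0.07 (SE 0.0460, interval -0.03 to 0.16, adjusted p = 0.178, edgeR) and ZEB2 by 0.03 (SE 0.0699, interval -0.11 to 0.17, adjusted p = 0.703, edgeR). Under upper-quartile normalization, which moved the median of all genes to 0.10, ZEB1 was at 0.17 with siZIP7_2 and passed (adjusted p = 0.000913, edgeR), and it was at 0.14 and passed when 10 counts were required in every library (adjusted p = 0.00532, edgeR). Neither interval with siZIP7_2 reached the fall seen with siZIP7_1. The direct difference between the siRNAs was 1.51 for ZEB1 (SE 0.0489, adjusted p = 1.39e-21, edgeR) and 0.67 for ZEB2 (SE 0.0727, adjusted p = 1.63e-09, edgeR). Reads of ZEB1 per read of ZEB2 went from 5.87 ± 0.0989 in siNC to 3.37 ± 0.149 with siZIP7_1 and 6.04 ± 0.338 with siZIP7_2 (SD, n = 3), so ZEB1 lost a larger part of its transcripts than ZEB2.

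ZEB1 has an antisense neighbour, ZEB1-AS1, a long noncoding RNA that starts beside it on the other strand and overlaps 4.23% of its exonic length. ZEB1-AS1 was at 9.77, 7.82 and 9.65 CPM with siNC, at 16.9, 15.1 and 18.5 CPM with siZIP7_1 and at 6.71, 5.07 and 5.73 CPM with siZIP7_2, and the groups did not overlap. It rose by 0.89 with siZIP7_1 (SE 0.0991, adjusted p = 4.25e-09, edgeR) and fell by 0.65 with siZIP7_2 (SE 0.116, adjusted p = 1.01e-05, edgeR) on the log2 scale. Its direction was thus opposite to that of ZEB1 with siZIP7_1. The strand setting of the counting is not given in the sources used here, and reads of the shared stretch cannot be told apart without it. VIM-AS1 was at 59.3, 34.8 and 33.0 CPM with siNC, at 42.7, 46.8 and 50.1 CPM with siZIP7_1 and at 55.3, 54.6 and 52.4 CPM with siZIP7_2. Of the siNC libraries 1 stood apart from the others. The siNC range overlapped both knockdown groups, which did not overlap each other. With siZIP7_2 VIM-AS1 passed the threshold as higher. ZEB2-AS1 had 0 reads in all 9 libraries. The miR-200 family, small RNAs known to repress ZEB1 and ZEB2, is not measured in mature form by these libraries. MIR200CHG, the host transcript of miR-200c and miR-141, had at most 1 read in any library. Of the genes of the other cluster, MIR200A had 5, 4 and 3 reads with siZIP7_2, MIR200B 2, 1 and 3, and MIR429 3, 2 and 2, while each had at most 1 read in any library of siNC or siZIP7_1.

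Because ZEB and SNAI proteins act through the E-box, the bases before the start sites of ZEB1 and VIM are shown here, 1 gene that fell with siZIP7_1 and not with siZIP7_2 and 1 that fell with both. They are the 250 bases before a RefSeq start on GRCh38.p14, plus strand, in lower case with any CACCTG or CAGGTG in capitals, at chr10:31318167-31318416 for ZEB1 and chr10:17227991-17228240 for VIM.
ZEB1: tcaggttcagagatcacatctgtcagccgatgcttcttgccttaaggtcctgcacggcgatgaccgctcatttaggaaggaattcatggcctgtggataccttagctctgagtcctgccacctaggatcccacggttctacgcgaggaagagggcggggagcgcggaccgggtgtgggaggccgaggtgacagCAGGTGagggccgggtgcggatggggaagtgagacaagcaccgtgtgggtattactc
VIM: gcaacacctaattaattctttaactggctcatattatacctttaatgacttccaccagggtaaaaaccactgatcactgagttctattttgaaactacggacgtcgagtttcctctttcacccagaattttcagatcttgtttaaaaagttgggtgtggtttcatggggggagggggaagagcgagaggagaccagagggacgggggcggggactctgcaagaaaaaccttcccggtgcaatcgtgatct
Of 7 windows of ZEB1, the one shown is the first along the chromosome and was chosen because it holds a match, while 5 hold none. It holds 1 E-box, CAGGTG, which begins 57 bases before the start and lies where an exon of ZEB1-AS1 is annotated. The VIM window holds none. RefSeq windows of 5 of the 10 members (CDH2, VIM, FN1, ZEB1 and ZEB2) were searched, 12 windows in all. Of these, 2 windows, both of ZEB1, held a match on either strand. Among all 35116 windows of this length, 17.5% did. The other members were left out of this search, so nothing is said of the bases before their start sites. A match is a stretch of letters and not a bound site.

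SNAI1 and SNAI2 encode Snail and Slug, related zinc finger repressors of CDH1. SNAI1 is the member in which the siRNAs differed most. SNAI1 (ENSG00000124216, chr20:49982999-49988886, plus strand) had 69, 46 and 80 reads with siNC (2.51, 1.98 and 2.85 CPM) and 23, 25 and 37 reads with siZIP7_1 (0.838, 0.859 and 1.161 CPM). With siZIP7_2 it had 412, 384 and 363 reads (16.0, 12.6 and 14.0 CPM). The 3 groups did not overlap. On the log2 scale, siZIP7_1 gave -1.36 (SE 0.203, adjusted p = 8.75e-07, edgeR) and 2.52 with siZIP7_2 (SE 0.130, adjusted p = 1.34e-16, edgeR). The direct comparison put SNAI1 14.7-fold higher with siZIP7_2 than with siZIP7_1 (log2 3.88, SE 0.151, adjusted p = 1.25e-19, edgeR).

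SNAI2 (ENSG00000019549, chr8:48917604-48921740, minus strand) was at 42.3, 46.2 and 43.2 CPM with siNC, at 27.6, 29.8 and 28.1 CPM with siZIP7_1 and at 19.8, 18.5 and 18.1 CPM with siZIP7_2. The groups did not overlap, and both knockdown groups lay below siNC. Against siNC the log2 change under siZIP7_1 was -0.62 (SE 0.0597, adjusted p = 2.05e-10, edgeR) and -1.22 with siZIP7_2 (SE 0.0629, adjusted p = 1.35e-16, edgeR), and the fall was larger with siZIP7_2 by 0.60 (SE 0.0645, adjusted p = 1.46e-09, edgeR). Reads of SNAI1 per read of SNAI2 were 0.0560 ± 0.0119 in siNC, 0.0335 ± 0.00684 with siZIP7_1 and 0.753 ± 0.0638 with siZIP7_2 (SD, n = 3). The siZIP7_2 libraries thus carried more SNAI1 than SNAI2 per length, which no library of the other groups did.

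TWIST1 (ENSG00000122691, chr7:19020991-19117672, minus strand) makes a basic helix-loop-helix factor of the same programme. It had 0 reads in all 9 libraries and was not tested. A floor of 3 counts, which covers counting error only, is 0.0941 to 0.129 CPM over the libraries, so a TWIST1 level above that was not seen in any group. Its relative TWIST2 had at most 1 read in a library.

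The lists below are read against all genes tested, of which 34.8% rose and 35.9% fell with siZIP7_1 and 38.5% rose and 39.3% fell with siZIP7_2. Of the other transcription factors tied to the transition, 15 of 20 were tested. With siZIP7_1, 3 rose and 10 fell (20.0% and 66.7%), with a median log2 fold change of -0.42 beside -0.01 over all genes tested, and with siZIP7_2, 6 rose and 9 fell (40.0% and 60.0%), with a median of -0.40 beside -0.00. SOX9, a factor of progenitor cells and cartilage, went from 210 ± 8.63 CPM in siNC to 62.2 ± 0.650 with siZIP7_1 and 90.8 ± 1.89 with siZIP7_2 (SD, n = 3). Its falls of -1.75 and -1.21 on the log2 scale passed with both siRNAs. ETS1, an ETS family factor, rose by 0.48 with siZIP7_1 and by 0.17 with siZIP7_2. The inhibitors of helix-loop-helix factors ID2 and ID3 differed from each other. ID2 rose with both, from 0.464 to 1.03 and 1.87 CPM, while ID3 went from 23.4 CPM to 42.4 with siZIP7_1 (log2 0.86, adjusted p = 4.71e-13, edgeR) and to 7.32 with siZIP7_2 (log2 -1.68, adjusted p = 8.45e-18, edgeR).

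**Figure D4:**
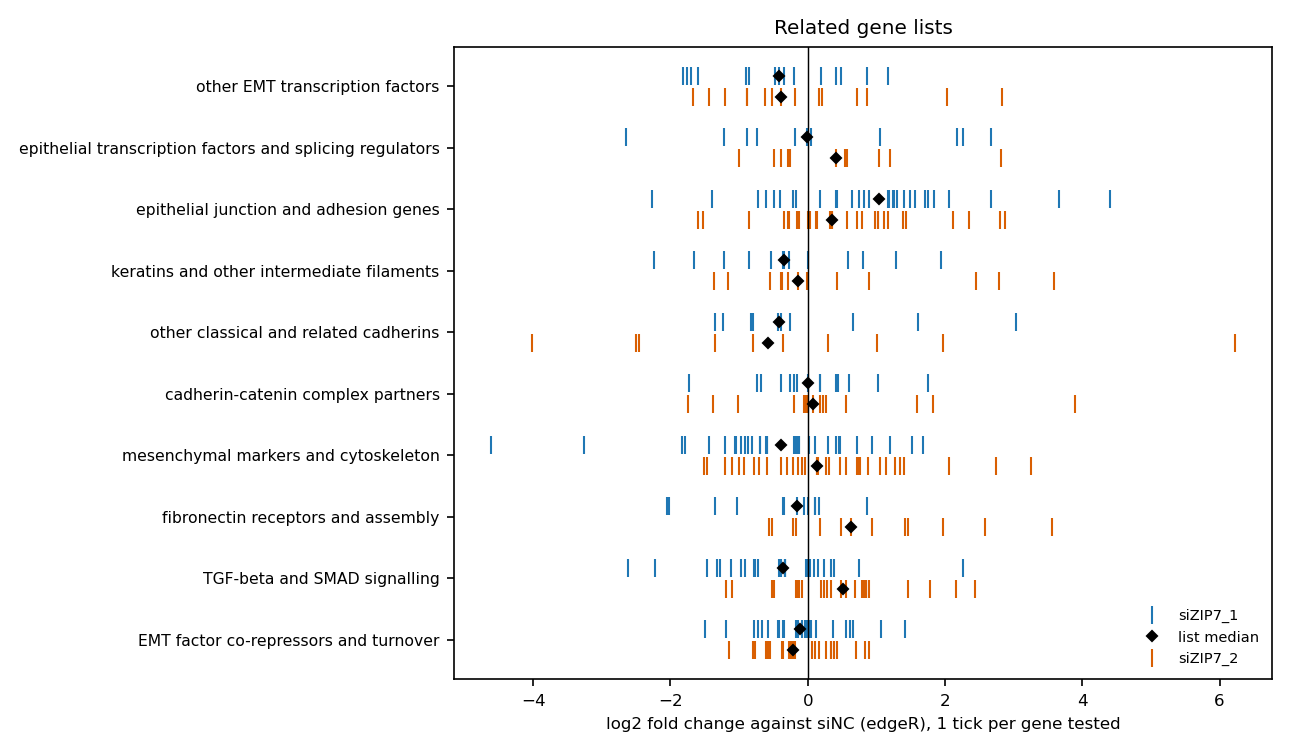
Log2 fold change against siNC (horizontal axis) of every tested gene of 10 related gene lists, with 1 tick per gene, siZIP7_1 in blue above siZIP7_2 in orange, and a black diamond for each list's median. The median of the junction list lies at 1.03 with siZIP7_1 and 0.35 with siZIP7_2, and that of the TGF-beta list at -0.36 with siZIP7_1 and 0.52 with siZIP7_2.

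Of 30 tested junction and adhesion genes of epithelial cells, 21 rose and 6 fell with siZIP7_1, and 18 rose and 7 fell with siZIP7_2. In percent, 70.0% of the list rose and 20.0% fell with siZIP7_1, and 60.0% rose and 23.3% fell with siZIP7_2. The median was 1.03 with siZIP7_1 and 0.35 with siZIP7_2. In the direct comparison 18 of the 30 (60.0%) were lower with siZIP7_2 than with siZIP7_1 and 10 (33.3%) were higher, beside 40.6% and 38.1% of all genes.

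CGN, which encodes the tight junction protein cingulin, was at 10.1, 10.4 and 9.15 CPM with siNC, at 214, 204 and 206 CPM with siZIP7_1 and at 18.1, 21.0 and 21.1 CPM with siZIP7_2. The groups did not overlap, and CGN rose with siZIP7_1 by a log2 value of 4.40 (SE 0.0654, adjusted p = 1.80e-28, edgeR) and 1.02 with siZIP7_2 (SE 0.0750, adjusted p = 4.30e-13, edgeR). ERBB3, a receptor of the EGF receptor family, went from 2.36 ± 0.0768 CPM to 30.1 ± 1.30 with siZIP7_1 and 6.18 ± 0.300 with siZIP7_2 (SD, n = 3), a log2 change of 3.67 and 1.38. Not all junction genes followed, since DSG2, a desmosomal cadherin, fell from 161 to 61.1 and 127 CPM. EVPL, which encodes the cornified envelope protein envoplakin, fell by 0.22 and 0.16 on the log2 scale. PKP2, a desmosomal plaque protein gene, went from 48.6 CPM to 128 with siZIP7_1 (log2 1.40) and to 16.9 with siZIP7_2 (log2 -1.52), and both passed. The claudin gene CLDN4, which was chosen after its values were seen because it makes up most of the epithelial marker sum with siZIP7_2, was at 24.6, 23.8 and 24.4 CPM with siNC, at 31.8, 34.6 and 31.1 CPM with siZIP7_1 and at 178, 155 and 174 CPM with siZIP7_2. It rose by 0.42 with siZIP7_1 (adjusted p = 1.12e-06, edgeR) and by 2.80 with siZIP7_2 (adjusted p = 2.24e-25, edgeR).

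**Figure D5:**
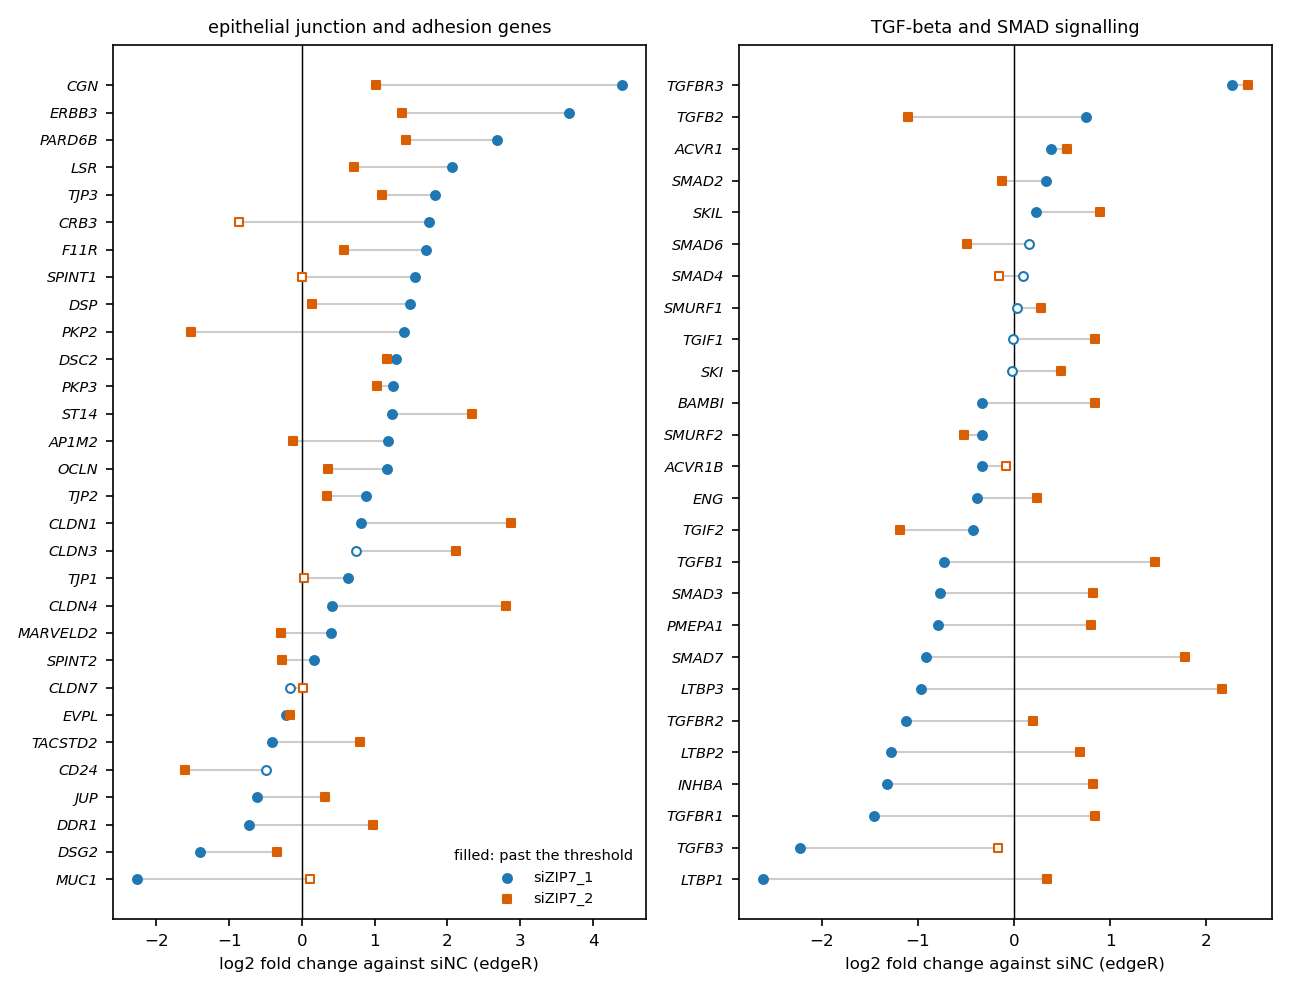
Log2 fold change against siNC (horizontal axis) of each tested junction and adhesion gene (left) and each TGF-beta and SMAD gene (right), with circles for siZIP7_1 and squares for siZIP7_2, filled where the change passed the threshold. CGN stands at 4.40 with siZIP7_1 and 1.02 with siZIP7_2, and in the right panel LTBP3 stands at -0.97 and 2.16.

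Of 11 epithelial transcription factors and splicing regulators, 4 rose and 4 fell with siZIP7_1, 36.4% each and close to the shares of all genes. With siZIP7_2, 6 rose and 3 fell (54.5% and 27.3%). KLF5, an epithelial zinc finger factor, went from 30.3 ± 0.426 CPM to 194 ± 6.09 with siZIP7_1 and 44.0 ± 3.04 with siZIP7_2 (SD, n = 3), a rise of 2.67 and 0.54 on the log2 scale. ELF3, an epithelial ETS factor, rose by 2.26 and 1.04 from 0.357 CPM. GATA3, the luminal breast factor, and KLF4, a zinc finger factor of epithelia, fell with both, by 0.89 and 0.29 for GATA3 and by 0.74 and 0.39 for KLF4. EHF, another epithelial ETS factor, went from 75.4 CPM to 32.5 with siZIP7_1 (log2 -1.21) and 100 with siZIP7_2 (log2 0.41), both of which passed. GRHL2, a factor that holds the epithelial state, was at 0.0528 CPM or less in the mean of every group.

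Among keratins and other intermediate filaments, 4 of 13 rose and 7 fell with siZIP7_1 (30.8% and 53.8%), and 5 rose and 7 fell with siZIP7_2 (38.5% and 53.8%). KRT19, a keratin of simple epithelia, rose from 79.6 ± 2.27 to 305 ± 9.55 and 107 ± 5.62 CPM (SD, n = 3), by 1.94 and 0.43 on the log2 scale. NES, which encodes the filament protein nestin, fell from 62.8 to 13.3 and 48.7 CPM, and KRT80, an epithelial keratin, from 231 to 159 and 89.6 CPM. KRT15, a basal keratin, went from 3.99 ± 0.298 CPM to 1.69 ± 0.368 with siZIP7_1 and 47.9 ± 0.973 with siZIP7_2 (SD, n = 3), with log2 values of -1.23 and 3.59 that both passed. Keratins thus stood among both the higher and the lower genes.

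Of 19 other cadherins, 10 were tested, and 2 rose and 5 fell with siZIP7_1 (20.0% and 50% of the list) while 4 rose and 6 fell with siZIP7_2 (40.0% and 60.0%). CDH4, which encodes R-cadherin, a close relative of N-cadherin, was at 146 ± 7.57 CPM in siNC, 443 ± 11.7 with siZIP7_1 and 113 ± 4.36 with siZIP7_2 (SD, n = 3). It rose by 1.61 and fell by 0.37 on the log2 scale. CDH10 fell from 5.18 to 2.06 and 0.319 CPM and CDH19 from 27.7 to 11.8 and 5.04 CPM, and these falls passed with both siRNAs. CDH5, the cadherin of endothelial cells, had 0, 0 and 1 read in the siNC libraries, 5, 1 and 6 with siZIP7_1 and 31, 41 and 33 with siZIP7_2.

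Among the partners of cadherins, 15 were tested, of which 6 rose and 7 fell with siZIP7_1 (40.0% and 46.7%) and 7 rose and 4 fell with siZIP7_2 (46.7% and 26.7%), with medians of -0.00 and 0.08. ARVCF, a catenin that binds the cadherin tail, rose from 3.44 ± 0.618 CPM to 11.7 ± 1.63 and 12.3 ± 0.623 (SD, n = 3), and CTNNA2, a neural alpha-catenin, from 0.498 to 1.04 and 1.56 CPM. VCL, which encodes vinculin, the actin linker of junctions, fell by 0.74 and 1.02, and CBLL1, a ubiquitin ligase of E-cadherin, by 0.20 and 1.38 on the log2 scale. NECTIN1, an adhesion receptor beside cadherins, went from 55.2 CPM to 16.7 with siZIP7_1 and 66.4 with siZIP7_2.

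Of 34 tested mesenchymal markers and cytoskeletal genes beyond VIM and FN1, 9 rose and 21 fell with siZIP7_1 (26.5% and 61.8%). With siZIP7_2, 19 rose and 12 fell (55.9% and 35.3%). The medians were -0.40 and 0.14. In the direct comparison 22 of the 34 (64.7%) were higher with siZIP7_2 than with siZIP7_1 and 8 (23.5%) were lower, beside 38.1% and 40.6% of all genes. TNC, which encodes the matrix protein tenascin-C, was at 438, 426 and 434 CPM with siNC, at 17.6, 19.8 and 15.9 CPM with siZIP7_1 and at 1150, 1005 and 1130 CPM with siZIP7_2. It fell by 4.61 with siZIP7_1 (SE 0.0694, adjusted p = 1.80e-28, edgeR) and rose by 1.34 with siZIP7_2 (SE 0.0558, adjusted p = 9.65e-19, edgeR) on the log2 scale. S100A4, a calcium-binding protein gene of motile cells, was at 311, 288 and 333 CPM with siNC, at 34.5, 29.03 and 34.1 CPM with siZIP7_1 and at 230, 181 and 209 CPM with siZIP7_2. Its fall was -3.25 (SE 0.0754, adjusted p = 1.23e-24, edgeR) and -0.59 (SE 0.0660, adjusted p = 3.44e-09, edgeR). THBS1, which encodes thrombospondin-1, fell with both, from 4680 to 1313 and 1648 CPM. SPARC, a matrix glycoprotein gene, and PDGFRB, a receptor of mesenchymal cells, rose with both, SPARC from 0.459 to 1.52 and 4.52 CPM and PDGFRB from 4.89 to 14.0 and 11.9 CPM.

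Of the fibronectin receptors and the genes of its assembly, 9 of 13 rose and 4 fell with siZIP7_2 (69.2% and 30.8%), with a median of 0.63. With siZIP7_1, 2 rose and 6 fell (15.4% and 46.2%) with a median of -0.16. PLAUR, the receptor of urokinase, went from 136 ± 6.81 CPM to 32.8 ± 0.272 with siZIP7_1 and 533 ± 9.69 with siZIP7_2 (SD, n = 3), with log2 values of -2.05 and 1.97 that both passed. PLAU, which encodes urokinase, fell from 1042 to 257 and 925 CPM, and 31.1% of its exonic length is overlapped by another gene.

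Of 26 TGF-beta and SMAD genes tested, 5 rose and 16 fell with siZIP7_1 (19.2% and 61.5%), and 18 rose and 5 fell with siZIP7_2 (69.2% and 19.2%), and the medians were -0.36 and 0.52. In the direct comparison, 20 of 26 were higher with siZIP7_2 and 6 were lower, which is 76.9% and 23.1% of the list beside 38.1% and 40.6% of all genes. LTBP3, a binding protein of latent TGF-beta, went from 38.7 ± 2.79 CPM to 19.8 ± 1.36 with siZIP7_1 and 174 ± 15.6 with siZIP7_2 (SD, n = 3). TGFBR3, the co-receptor betaglycan, rose with both, from 12.3 to 59.3 and 66.5 CPM, and SKIL, a SMAD co-repressor, by 0.23 and 0.89 on the log2 scale. TGIF2, another repressor of SMAD targets, fell by 0.43 and 1.19, and SMURF2, a ubiquitin ligase of the pathway, by 0.33 and 0.52. The ligand gene TGFB1, named after its values were seen, was at 223, 214 and 216 CPM with siNC, at 132, 126 and 135 CPM with siZIP7_1 and at 632, 565 and 605 CPM with siZIP7_2. The other ligand genes did not follow it with both siRNAs. TGFB2 moved the opposite way, from a mean of 113 CPM in siNC to 190 with siZIP7_1 and 52.5 with siZIP7_2. In the annotation 26.6% of the exonic length of TGFB2 is overlapped. TGFB3 was lower with siZIP7_1, as TGFB1 was, going from 2.39 CPM in siNC to 0.501, but it was at 2.15 CPM with siZIP7_2.

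Of 26 co-repressors of the factors and genes of their protein turnover, 7 rose and 12 fell with siZIP7_1 (26.9% and 46.2%), and 8 rose and 15 fell with siZIP7_2 (30.8% and 57.7%). WTIP, of the family of LIM proteins that bind Snail, rose from 12.7 to 33.7 and 22.6 CPM, and LATS2, a Hippo pathway kinase that also acts on Snail, rose from 92.3 to 193 and 171 CPM. EZH2, the Polycomb methyltransferase, fell by 0.66 and 0.77, and USP3, a deubiquitinase, by 1.502 and 0.26 on the log2 scale. FBXO11, a ubiquitin ligase subunit for Snail, went from 86.2 CPM to 52.3 with siZIP7_1 and 116 with siZIP7_2, and 26.9% of its exonic length is overlapped by other genes.

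In bulk RNA, fewer cells of a kind and less RNA per cell cannot be told apart, so none of these values says whether all cells changed alike. The summed level of 5 mesenchymal markers (VIM, FN1, ZEB1, CD44 and AXL, all detected) ran from 8660 to 9192 CPM in siNC, from 5351 to 5632 with siZIP7_1 and from 6084 to 6312 with siZIP7_2. VIM, with means of 5529, 2687 and 2896 CPM, was the main part of the change in this sum, while CD44 went from 816 to 465 CPM with siZIP7_1 and to 1793 CPM with siZIP7_2. The 7 epithelial markers (CDH1, EPCAM, CLDN3, CLDN4, CLDN7, GRHL2 and ESRP1), 6 of which were above 3 counts in some library, summed to 55.3 to 60.2 CPM in siNC, 69.5 to 71.5 with siZIP7_1 and 186 to 213 with siZIP7_2. CLDN4, with means of 24.3 CPM in siNC and 169 with siZIP7_2, was the main part of the rise with siZIP7_2. There CDH1 and CLDN3 rose only to 0.998 and 1.03 CPM. CLDN7 was at 26.2 CPM beside 25.7 in siNC, while the means of EPCAM, GRHL2 and ESRP1 were lower than in siNC. The 4 fibroblast markers (PDGFRB, DCN, LUM and COL1A1) ran from 57.6 to 63.6 CPM in siNC, 123 to 133 with siZIP7_1 and 185 to 210 with siZIP7_2, of which COL1A1 made up most, while DCN was at 0.0502 CPM or less in every group mean. The 3 endothelial markers (PECAM1, CDH5 and KDR) summed to 6.57 to 7.16 CPM in siNC, 7.28 to 9.07 with siZIP7_1 and 12.4 to 13.8 with siZIP7_2. Within this sum PECAM1 and KDR moved in opposite directions. PECAM1 went from 3.02 CPM to 0.102 with siZIP7_1 and 8.63 with siZIP7_2, and KDR from 3.78 CPM to 7.94 and 3.11. The 3 basal markers (KRT5, KRT14 and TP63) summed to 0.980 to 1.14, 0.219 to 0.282 and 3.00 to 3.80 CPM in the same order, with KRT5 at 0. The 2 leukocyte markers (PTPRC and CD68) summed to 2.72 to 3.14 CPM in siNC, 1.54 to 2.08 with siZIP7_1 and 2.50 to 3.11 with siZIP7_2. With siZIP7_1 the mean of CD68 went from 2.57 to 0.982 CPM and that of PTPRC from 0.402 to 0.875 CPM. Other genes overlap 85.8% of the exonic length of CD68. Reads on no gene were 7.43% to 8.28% of the reads listed with siNC, 7.80% to 9.62% with siZIP7_1 and 9.995% to 11.5% with siZIP7_2, where the range lay above those of the other groups. The part of these sums and of this share in the members' changes was not tested.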

How the data were processed

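RNA was sequenced as single reads on an Illumina HiSeq system. The deposited values are raw counts of reads per Ensembl gene, not normalized by the authors. The submitters' processing notes name Trim Galore 0.4.1, FastQC 0.11.2, STAR, HTSeq 0.6.1 and DESeq2 1.16.1. The genome build, the annotation and the strand setting are not given in the sources used here. Symbols, positions and lengths came from GENCODE 29 on GRCh38, and promoter windows from RefSeq on GRCh38.p14. Reads on no gene (7.43% to 8.28% of those listed with siNC, 7.80% to 9.62% with siZIP7_1 and 9.995% to 11.5% with siZIP7_2) and ambiguous reads (2.66% to 2.91%) were left out, and reads with several alignments were listed as 0.

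The tests were run with edgeR 4.0.16 in R 4.3.3, after TMM normalization, with its low-count filter and quasi-likelihood test in one model of 3 groups with 6 residual degrees of freedom. The SE is the log2 fold change divided by the square root of F. The steps were tested on simulated data, with 1 dispersion for all genes and far fewer changed genes than passed here. That simulation therefore does not show how the steps perform where most genes change. In it edgeR recovered 19.15% of 1.2-fold and 89.58% of 2-fold changes for siZIP7_1, and 23.4% and 85.71% for siZIP7_2. Groups came from the sample labels. A count of 3 was used as the floor, which covers counting error only. The intervals of log2 changes rest on the spread between libraries. Besides the 10 members and SLC39A7, genes were named from 11 other lists by a rule. It took genes that reached a mean of 1 CPM in some group, namely from each list up to 2 genes in each direction with the largest mean change that passed with both siRNAs, and the gene with the largest difference that passed in opposite directions. One gene that the rule names is not reported here. Genes named outside this rule are antisense, marker and undetected genes and those stated. The members and lists were chosen with earlier results of these data known. Alternatives were DESeq2 1.42.0 or only its size factors, upper-quartile normalization, dropping the filter or asking for 10 counts in each library, a block for the replicate number, fits to only the 2 groups compared, and leaving out each library.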

Additional observations from a re-analysis of the deposited data

Results flagged for a closer look

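For EPCAM and SNAI1 the siRNAs changed the same gene in opposite directions against siNC, and the direct test of siZIP7_2 against siZIP7_1 passed. These are 2 of the 9 members tested (22.2%), near the 18.7% of all genes tested that passed in opposite directions. Opposite changes against siNC largely imply a direct difference, so the direct test gives its size and is not separate evidence. EPCAM was 1.13 lower on the log2 scale with siZIP7_2 than with siZIP7_1 (a difference of -1.13, SE 0.107, adjusted p = 1.05e-10, quasi-likelihood test of edgeR, adjusted after Benjamini-Hochberg), from 9.68 ± 0.662 to 4.42 ± 0.545 CPM (SD, n = 3), with siNC between them at 6.57 ± 0.296 CPM. SNAI1 was higher with siZIP7_2 than with siZIP7_1 by 3.88 (SE 0.151, adjusted p = 1.25e-19, same test), from 0.952 ± 0.181 to 14.2 ± 1.69 CPM (SD, n = 3), with siNC between them at 2.44 ± 0.439 CPM. For both genes all 3 siZIP7_1 libraries lay on one side of the siNC libraries and all 3 siZIP7_2 libraries on the other. Over the 16 other settings the difference ran from -1.20 to -1.04 for EPCAM and from 3.79 to 4.04 for SNAI1, and it passed in each.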

How the results depend on the processing

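The 9 members tested gave 27 log2 values over 3 comparisons, each computed under 16 other settings. Of these values, 417 kept their direction and their side of the threshold, 9 no longer passed, 4 passed only then and 2 changed sign. The counts of members past the threshold stayed within 1.5 times. All 9 losses concern VIM between the siRNAs (0.11), which was 0.060 with no low-count filter (adjusted p = 0.309) and 0.11 with the replicate block (adjusted p = 0.0549), and ran from 0.080 to 0.13 with 1 library left out. ZEB1 with siZIP7_2 (0.07) was 0.17 with upper-quartile normalization and 0.14 where each library had to hold 10 counts, and passed in both. ZEB2 with siZIP7_2 (0.03, not past the threshold) was -0.022 with no filter and ran from -0.010, without siZIP7_2 replicate 2, to 0.069 with 1 library left out. With 1 library left out, FN1 with siZIP7_1 ran from -0.14, without siNC replicate 2 and past the threshold, to -0.027. CDH2 with siZIP7_2 ran from 0.23 to 0.63, the latter without siZIP7_2 replicate 1 and past the threshold. By the longest transcript, ZEB2 ranked 6 and SNAI1 ranked 7. The cause of these shifts was not tested.

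The libraries of each group are numbered 1 to 3. With group means removed, libraries of the same number correlated across genes from -0.124 to 0.131, and not every library correlated best with its own number, so the numbers were not taken as pairs. With the number as a replicate block, 11927 and 13080 genes passed with siZIP7_1 and siZIP7_2, against 11851 and 13038 without it. Among the member values the block changed no call but that of VIM between the siRNAs. Depth limits CDH1, CDH2 and SNAI1, which had under 100 reads in every siNC library, and TWIST1, which had none.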
